A study of Mus musculus with 13 samples.

Results

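The genes described here carry out DNA replication and the S phase of the cell cycle. The list holds 43 genes, named by their function with earlier results of these data known. Each has a probe set assigned to 1 gene, and for a gene with several probe sets the one with the highest mean was taken. They are 43 of the 19938 genes measured, and all 43 were found on the arrays. After the dimmest 25% of genes were left out, 40 of the 43 were among the 14953 genes tested. The other 3 were Orc1, Cdc6 and Gins1, which lay at the 8.9, 16.1 and 14.2 percentiles of mean intensity over genes.

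Whole back skin came from male C57BL/6 mice at postnatal day 46, in telogen, the phase in which hair follicles rest. All mice lived on a cycle of 12 h light to 12 h dark with standard chow, and the groups differed only in the hour of collection. Zeitgeber time (ZT) counts hours from lights on, so ZT2, ZT6 and ZT10 lie in the light and ZT14, ZT18 and ZT22 in the dark. RNA of 3 mice was pooled for each array, collections were 4 h apart, and 13 arrays ran from hour 2 to hour 50: 3 for ZT2 and 2 for each other time. Values are linear probe set intensities, and tests used log2(intensity + 16), on which the change of a dim gene is understated. Each array is a separate pool, so p-values rest on how much pools of mice vary and say nothing of single animals. The number of arrays limits the precision. Fits of a 24 h curve and of dark against light do not give each time of day its own mean. In these fits, differences between times of day also enter the spread.

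DNA replication begins when the origin recognition complex, CDC6 and CDT1 load the MCM2-7 helicase onto origins before S phase. Cyclin E and the E2F transcription factors then drive entry into S phase, CDC45 and the GINS complex activate the helicase, and primase and the DNA polymerases copy the strands with the help of the PCNA clamp and its loader. In resting skin the cells that replicate lie mainly in the epidermis between the follicles. In whole skin, fewer cells of a type and less RNA per cell cannot be told apart.

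The tissue label fits the markers of skin: Krt5 of basal keratinocytes lay between 14202.9 and 15571 on the 13 arrays, and Krt10 of differentiated keratinocytes between 13015.8 and 14944.5. The arrays differed in ways the hour does not give. Their mean correlation with the other arrays ran from 0.936 to 0.978 and was lowest on the second ZT22 array, at 0.936, then on the first ZT2 array, at 0.952, and the first ZT22 array, at 0.957. On the second ZT22 array the 11 growing follicle markers measured summed to 20676, against 3031 to 4308 elsewhere, and Krt71 of the inner root sheath read 6402.4, against 279.3 to 637.3. That pool therefore goes against the telogen label in these markers. Counts of calls by time of day are also given below without some of these arrays.

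Many S phase genes carry E2F binding letters near their start, so the promoter letters of some members are shown first. In the RefSeq promoter windows (build GRCm38.p6, 250 bases before to 50 after the start), 36 of the 43 members were listed. The letters TTTCCCGC, TTTGGCGC, TTTCGCGC or TTTGCCGC, searched on both strands with overlaps counted, stood in a window of 13 of the 36 members (36.1%), against 2.26% of all 32851 windows and 2.6% of all 27025 genes. The CCAAT letters stood in 21 of the 36 members (58.3%), against 41.06% of all genes. Also searched were the E-box letters CACGTG, in 6 members (16.7%) against 8.09% of all genes. The letters TTTGAA stood in 4 (11.1%), against 20.23%. The stretches below lie before the start, 5′ to 3′ on the gene's own strand, with the matching letters in capitals. Mcm6 (chr1:128359715-128359845, minus strand), Mcm7 (chr5:138172011-138172078, minus), Rfc3 (chr5:151651209-151651248, minus), Pola1 (chrX:93632256-93632323, minus) and Cdc6 (chr11:98907983-98908050, plus) show E2F letters, and Mcm2 (chr6:88898921-88898985, minus), whose window has none, shows its CCAAT letters on the opposite strand.
Mcm6: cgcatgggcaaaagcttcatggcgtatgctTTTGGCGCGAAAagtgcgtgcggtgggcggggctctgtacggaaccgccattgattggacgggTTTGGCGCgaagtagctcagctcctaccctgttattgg
Mcm7: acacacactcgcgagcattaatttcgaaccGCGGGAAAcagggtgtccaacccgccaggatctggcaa
Rfc3: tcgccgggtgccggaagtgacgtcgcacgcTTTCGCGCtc
Pola1: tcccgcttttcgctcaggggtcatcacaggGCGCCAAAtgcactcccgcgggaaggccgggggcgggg
Cdc6: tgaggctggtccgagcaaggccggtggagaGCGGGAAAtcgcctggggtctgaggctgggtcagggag
Mcm2: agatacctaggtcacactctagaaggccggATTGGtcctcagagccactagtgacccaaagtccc
The arrangement differs between the members. In Mcm6 a run of 12 bases holds a pair of overlapping matches, which begin at -110 and -106 from the start, and another match begins at -47. In Mcm7 the match shown begins at -165, in Rfc3 at -10, and in Pola1 and Cdc6 at -138. A match is a description of letters and not a binding site.

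The members read highest late in the light. Of the 40 tested, 26 (65%) had their highest mean of the 6 times of day at ZT10, against 21.4% of all genes tested. ZT22 was highest for 6 members (15%, beside 19.2% of all genes), ZT2 for 4 (10%, beside 15.2%) and ZT6 for 2 (5%, beside 18.8%). ZT18 was highest for 2 (5%, beside 14.2%) and ZT14 for none, beside 11.2%. Lowest means were spread more widely. ZT2 was lowest for 12 members (30%, beside 21.3% of all genes) and ZT10 for 2 (5%, beside 11.4%). The 9 lowest at ZT14 (22.5%) and the 8 at ZT18 (20%) were near the shares of all genes, 20.3% and 19%.

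By the median and the count above the mean, the same hour stood out on both days. On the ZT10 arrays 34 and 35 of the 40 members lay above their own mean over the 13 arrays, beside 52.3% and 63.3% of all genes tested. The median member deviated from its own mean by 0.13 and 0.14 in log2 on these arrays, and by -0.10 to 0.09 on the other 11. The interquartile ranges over the 40 members were 0.06 to 0.19 on both ZT10 arrays, and the all-gene medians were 0.01 and 0.04. The first ZT22 array had a higher 75th percentile, at 0.26, with 24 members (60%) above their own mean, beside 47.9% of all genes. The summed intensity of the 43 members was also highest there, at 26462, against 26058 and 25917 on the ZT10 arrays. The first ZT14 array and the second ZT22 array were the lowest, with 8 and 7 members above their own mean.

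**Figure D1:**
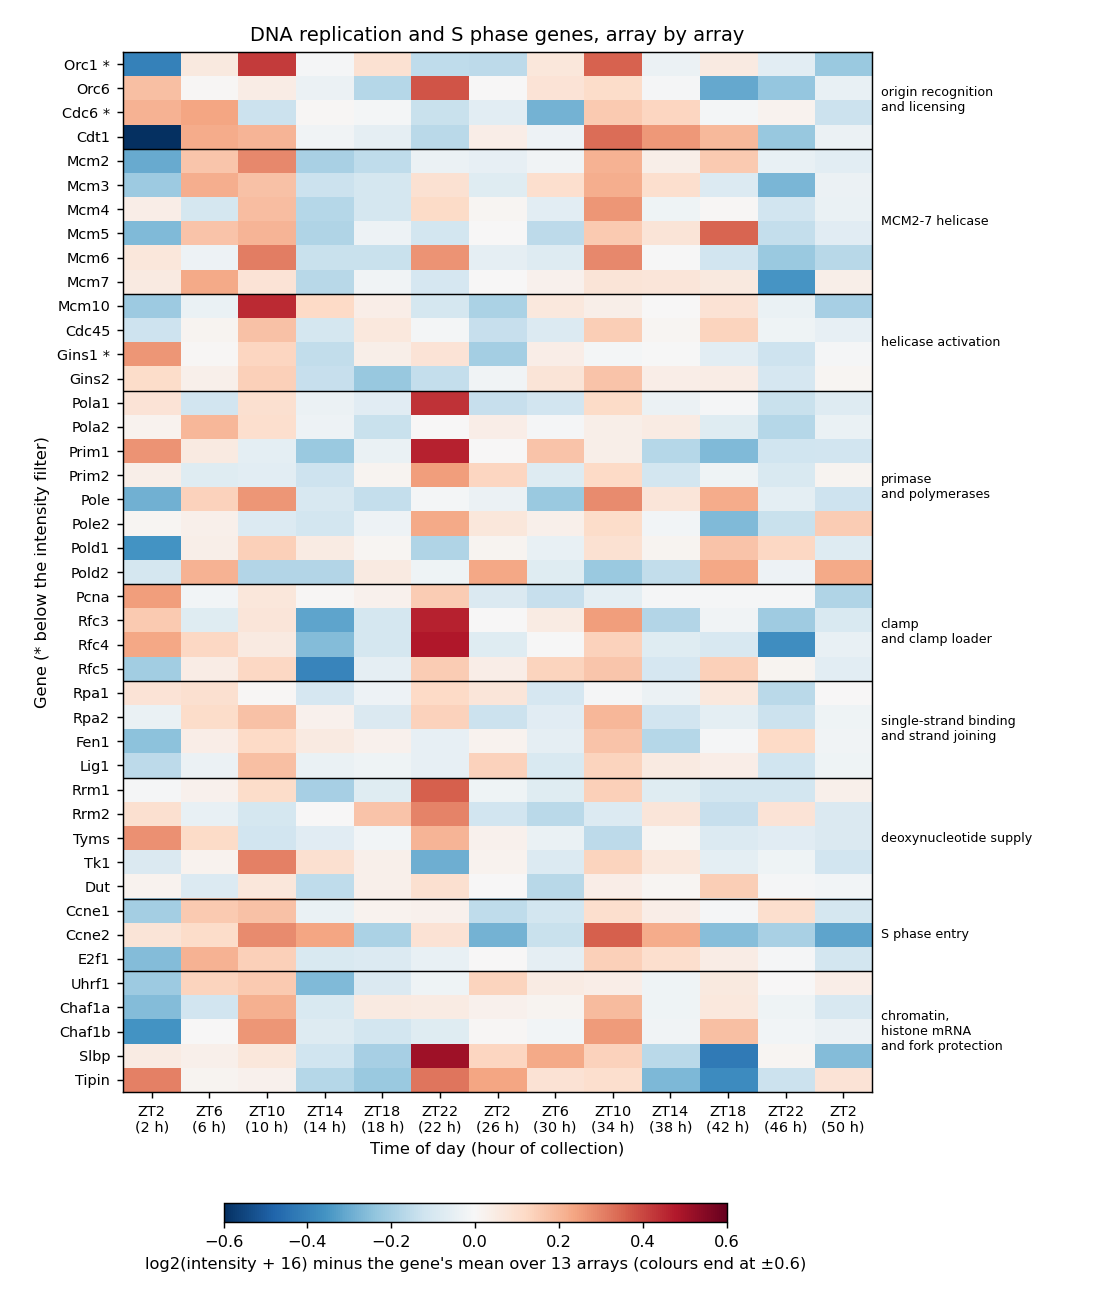
Each row is a member, grouped by role, and each column an array in order of collection. Colour gives log2(intensity + 16) minus the gene's mean over 13 arrays, and an asterisk marks the 3 members below the intensity filter. Red fills most of both ZT10 columns, and the first ZT22 column is mixed, with Pola1, Prim1, Rfc3, Rfc4 and Slbp dark red.

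Against this, no member passed the test of a 24 h rhythm. The fit (limma, F test on cosine and sine over 13 arrays, Benjamini-Hochberg adjustment over 14953 genes, threshold 0.05) called 0 of the 40 members, while it called 2.13% of all genes. At an unadjusted p under 0.05 it gave 8 members (20%), against 18.5% of all genes, a share close to the background. The median fitted peak-to-trough difference was 0.20 in log2 for the members and 0.19 for all genes tested. Fitted peaks fell between 8 h and 12 h after lights on for 13 members (32.5%), against 19.9% of all genes.

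The test over the 6 times of day with no assumed shape called 0 members, beside 0.294% of all genes. Without adjustment it gave 3 members (7.5%), Ccne2, Tipin and Mcm10, against 8.94% of all genes. Cdc45, the next by p, had a range between times of 0.26 in log2 (adjusted p = 0.577). The arrays that stand apart bear on these calls. Without the first ZT2 and the second ZT22 arrays, the time-of-day test called 9 members (22.5%) beside 9.19% of all genes, among them Ccne2, Mcm6, Tipin, Pola1, Prim1 and Rrm1, and the 24 h fit called no member. Without the first ZT2 and the first ZT22 arrays, the 24 h fit called 4 members (10%), Orc6, Mcm3, Ccne2 and Tipin, beside 5.17% of all genes. Both settings were chosen after the values were seen, and both leave 1 array at ZT22, which is assumed to vary like the other times.

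**Figure D2:**
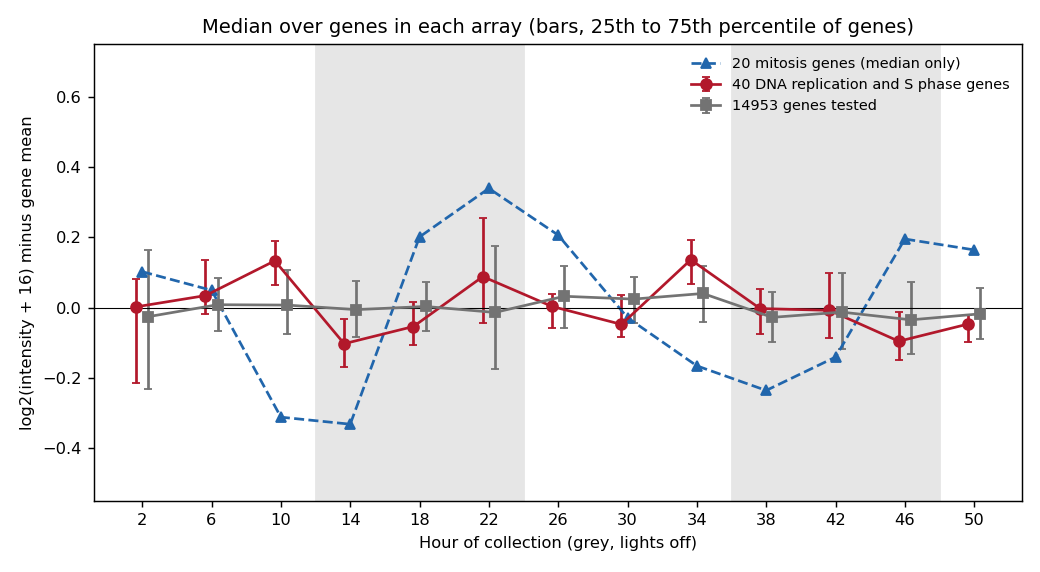
Median over genes of log2(intensity + 16) minus the gene mean, by hour of collection, for the 40 members (red circles), all 14953 genes tested (grey squares) and 20 mitosis genes (blue triangles, median only). Bars run from the 25th to the 75th percentile of genes, and grey areas mark lights off. The members reach 0.133 and 0.136 at hours 10 and 34, where the mitosis genes lie at -0.312 and -0.166.

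Late light against late dark was the comparison with the most members at small p. In the contrast of ZT10 with ZT22 (limma, in the fit of 6 times), 30 of the 40 members (75%) read higher at ZT10, beside 57.8% of all genes, with a median difference of 0.13 against 0.03 in log2. No member passed the adjusted threshold, which 0.415% of all genes did. Without adjustment 9 members (22.5%) had p under 0.05, beside 9.85% of all genes: 8 were higher at ZT10 (20%, beside 6.49%), and Rrm2 was lower. Without the first ZT2 and the second ZT22 arrays, 6 members passed (15%) beside 21.9% of all genes, and only Tk1 of them was higher at ZT10. Orc6, Pola1, Prim1, Rfc4 and Tyms were lower, with the first ZT22 array alone for its time; with all arrays Orc6 and Rfc4 differed by 0.0037 and 0.04 in the other direction. Without the first ZT2 and the first ZT22 arrays, Mcm6 alone of the members passed (0.52 in log2, adjusted p = 0.0263), 2.5% beside 1.63% of all genes. The number of members higher at ZT10 was 36 without the first ZT22 array, 23 without the second and 24 after quantile normalization. The share of all genes higher at ZT10 in these settings is not given here, so the counts cannot be set against it.

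Counts of arrays that do not overlap describe the same contrast by a rule chosen after the values were seen. Both ZT10 arrays lay above both ZT22 arrays for 21 of the 40 members (52.5%), beside 21.8% of all genes. Against the second ZT22 array alone the number was 34 (85%), beside 48.7% of all genes, and against the first alone 23 (57.5%), beside 46%. Both ZT10 arrays lay above all 11 other arrays for 11 members (27.5%), beside 3.67% of all genes. They were Mcm2, Mcm4, Mcm6, Cdc45, Gins2, Pole, Rpa2, Tk1, Ccne2, Chaf1a and Chaf1b. After quantile normalization the number was 6 (15%), beside 2.26% of all genes.

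**Figure D3:**
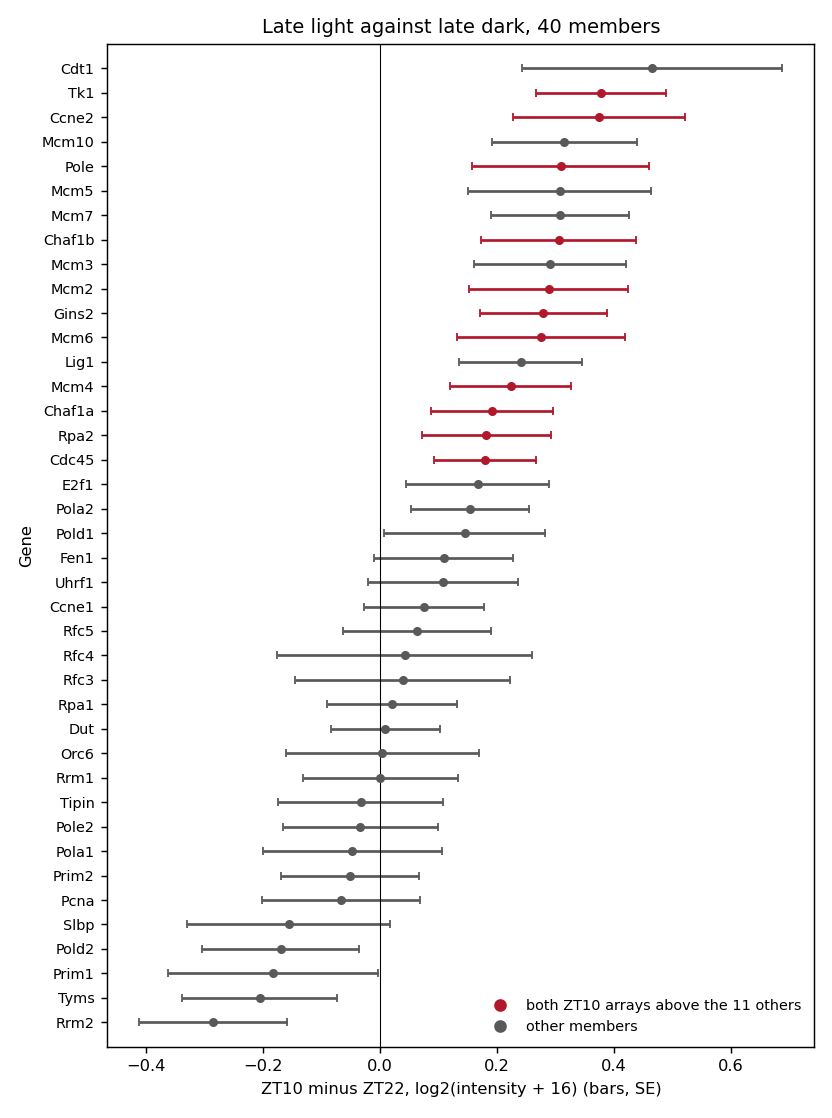
ZT10 minus ZT22 in log2(intensity + 16) for the 40 members, in order of the difference, with SE bars from the fit of 6 times of day (2 arrays at each of these times). Red marks the 11 members whose ZT10 arrays both lay above the 11 other arrays. 30 members lie right of 0, from Rrm1 near 0 to Cdt1 at 0.47, and Rrm2 is lowest at -0.28.

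The ZT10 arrays were also looked at in the markers of other cells. Summed liver markers, which whole skin should lack, read 57647 and 14028 on the ZT10 arrays and 8353 to 55417 elsewhere. Macrophage and dendritic markers (7 genes) summed to 10139 and 11431, against 6797 to 10148 elsewhere. Basal keratinocyte markers (8 genes) summed to 52565 and 53154, within the 50767 to 55306 of the other arrays. The 1194 olfactory and vomeronasal receptor genes mark the dim end of the arrays. They summed to 153633 and 152818, within the 105877 to 170245 of the others. Their median deviation from the gene mean was 0.104 and 0.101 in log2 on the ZT10 arrays, and -0.356 to 0.233 elsewhere. On the ZT10 arrays 922 and 953 of them lay above their own mean, against 74 to 1114 on the others. The part of liver and macrophage RNA in the members' values was not tested.

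Among the licensing genes, only Cdt1 and Orc6 were bright enough to test. CDT1 loads the helicase and is destroyed once S phase starts. Cdt1 read 422.3 and 463.3 at ZT10 and 323.7 and 308.5 at ZT22, with 214.3, 374.8 and 354.9 at ZT2, 427.6 and 356 at ZT6, 359.1 and 440.2 at ZT14, and 350.3 and 419.7 at ZT18. The ZT10 arrays were above the ZT22 arrays, but ZT6 and ZT14 reached into the ZT10 values, and the first ZT2 array was far below the rest. Its difference of ZT10 from ZT22 was the largest of any member, at 0.47 ± 0.22 (SE) in log2, and was not past the threshold (adjusted p = 0.519). Orc6, a subunit of the origin recognition complex, read 1012.9 and 658.2 on the ZT22 arrays, the highest of the 13 values and the next to lowest. Orc1, the large subunit that binds ATP, was below the filter and read 133.8 and 127 at ZT10, above its 68.4 to 103.2 on the other 11 arrays.

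All 6 subunits of the MCM2-7 helicase, the ring that unwinds DNA at the fork, had both ZT10 arrays above both ZT22 arrays. Of all genes 21.8% did. For 3 of the 6 the second ZT22 array was the lowest of all 13, beside 12.8% of all genes. Their ZT10 minus ZT22 differences ran from 0.22 to 0.31 in log2, with a median of 0.29, and none passed the adjusted threshold. Mcm6, with a mean intensity of 860.3, read 1060.9 and 1046.3 at ZT10, 896.8, 821.3 and 759.1 at ZT2, 835.1 and 809.2 at ZT6, 776.1 and 853.5 at ZT14, 777.3 and 787.3 at ZT18, and 1030.9 and 730.2 at ZT22. The first ZT22 array came close to the ZT10 arrays and the second was the lowest of all 13. Mcm6 is also the member with 3 E2F matches in the sequence above. Mcm2, without any, read 673.1 and 634.2 at ZT10 and 441.3 to 616.7 on the other arrays. Over all roles, 7 tested members with both ZT10 arrays above all other arrays had a promoter window listed. E2F letters stood in 1 of these 7, against 12 of the 29 other members listed, which include Orc1 and Cdc6 below the filter. A link between the letters and the ZT10 values was not tested.

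Mcm7 followed another course within the same ring. It read 863.8 and 859.3 at ZT10 against 759.2 and 633.1 at ZT22, but its highest value, 957.1, was on the first ZT6 array. Its ZT10 minus ZT22 difference was 0.31 ± 0.12 (adjusted p = 0.428), and its dark minus light difference -0.16 ± 0.07 (adjusted p = 0.585). Mcm5 was highest on the second ZT18 array, at 990, above its 894.3 and 863.9 at ZT10. Mcm3 read 393.1 and 405.2 at ZT10 and 368.7 and 283.4 at ZT22, and its first ZT6 array, at 404.5, lay between the ZT10 values.

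The helicase activators tested were all higher at ZT10 than at ZT22 on both days. Gins2, part of the GINS complex, read 466.3 and 475.5 at ZT10 and 379.3 and 391.1 at ZT22, with 455.2, 413.3 and 423.4 at ZT2, 429.5 and 444.6 at ZT6, 380.5 and 432.6 at ZT14, and 356.1 and 433.3 at ZT18. Its ZT10 arrays were above all others. It had the smallest p of the members for dark minus light, at -0.16 ± 0.06 in log2 (adjusted p = 0.513), and a ZT10 minus ZT22 difference of 0.28 ± 0.11 (adjusted p = 0.432). Mcm10, which helps the helicase to start, read 326.9 on the first ZT10 array and 241.1 on the second. The second lay within the 200.2 to 256.7 of the other arrays, so the days differed at this hour. Its fitted 24 h difference was 0.35 ± 0.10 in log2 with a peak at 12.3 h (adjusted p = 0.152), and its ZT10 minus ZT22 difference 0.31 ± 0.12 (adjusted p = 0.435). Cdc45 read 588.8 and 577.3 at ZT10 and 470.8 to 571.5 elsewhere, a narrow range with the ZT10 arrays on top. Gins1, below the filter, had a mean of 130.9.

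Of the 8 members that make up primase and the polymerases, 2 had both ZT10 arrays above both ZT22 arrays, beside 21.8% of all genes. They were Pole and Pola2, and the median ZT10 minus ZT22 difference of the 8 was -0.04 in log2. On the ZT10 arrays 4 and 7 of the 8 lay above their own mean, and on the ZT22 arrays 5 and 1. Pole, the catalytic subunit of the leading strand polymerase, read 523.9 and 531.6 at ZT10, above its 352.7 to 509.9 on the other arrays. Pola1, the catalytic subunit of the polymerase that works with primase, read 488.6 on the first ZT22 array and 322.9 to 388.5 on the other 12. The second ZT22 array, at 324.7, was among the lowest, so the 2 days disagree at ZT22.

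Prim1, the primase subunit that makes the RNA primer, showed the same split, with 603.3 and 398.8 on the ZT22 arrays. Prim2 read 651.6 and 509.7 there, and Pole2, a smaller subunit of the leading strand polymerase, 532.6 and 410.6. In each of these genes the first ZT22 array was the highest of all 13. Pold2, a subunit of the lagging strand polymerase with a mean intensity of 1369.8, had its lowest means at ZT10 and ZT14. It read 1204 and 1165.4 at ZT10, near its 1202 and 1226.9 at ZT14, and 1264.5 to 1599.2 on the arrays of the other times.

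The clamp and its loader had no member of 4 with both ZT10 arrays above both ZT22 arrays, beside 21.8% of all genes. Pcna, the sliding clamp, had a mean intensity of 2868.8. It read 3405.1, 2688.7 and 2521.2 at ZT2, 2830.5 and 2595.1 at ZT6, 3002.6 and 2744.7 at ZT10, 2877.1 and 2848 at ZT14, 2913.2 and 2843.8 at ZT18, and 3176.8 and 2848.3 at ZT22. At every time of day the array of the first day was the higher of the pair for this gene. Rfc3 and Rfc4, subunits of the loader, read 415.2 and 692.4 on the first ZT22 array, their highest, and 253.7 and 376.6 on the second. Rfc5 was within 719.9 and 1071.3 and differed between ZT10 and ZT22 by 0.06 ± 0.13 in log2.

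Of the 4 single strand binding and joining genes, Rpa2 and Lig1 had both ZT10 arrays above both ZT22 arrays, beside 21.8% of all genes. Rpa2, part of the complex that coats single strands, read 438.8 and 445.4 at ZT10 and 351.8 to 427.5 on the other 11 arrays, with 427.5 and 351.8 at ZT22. Lig1, the ligase that seals Okazaki fragments, read 501.6 and 485.7 at ZT10, and the second ZT2 array, at 487.4, lay between them. Rpa1, the large subunit of that complex, had a mean of 753.4 and ran from 670 to 817.9. Fen1, the flap nuclease, had a mean of 273.7, and its ZT10 values of 297.8 and 309 overlapped ZT22 at 263.2 and 298.1.

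Among the genes of deoxynucleotide supply, Tk1 and Rrm2 stood on opposite sides of the late light comparison. Tk1, the thymidine kinase of dividing cells, read 694 and 615.9 at ZT10 and 454.5 and 549.1 at ZT22. Its other values were 526.9, 568.8 and 516.1 at ZT2, 568.4 and 529 at ZT6, 599.1 and 585.3 at ZT14, and 571.8 and 537.2 at ZT18. The ZT10 arrays were above all others and ZT14 came next.

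Tk1 had the smallest p of the members for ZT10 minus ZT22, at 0.38 ± 0.11 in log2 or 1.30-fold (adjusted p = 0.269, limma). Its fitted 24 h difference was 0.30 ± 0.08 with a peak at 11.01 h (adjusted p = 0.163). A second probe set of the gene gave 0.36 ± 0.14 for ZT10 minus ZT22 (adjusted p = 0.426), but its highest array was the second ZT14, at 550.3, against 541.5 and 433.3 at ZT10. The call moved with the arrays and the model: the adjusted p was 0.0314 with the growing follicle score as a covariate, 0.0184 when the second ZT22 array was left out with the first ZT2 array, and above the threshold otherwise.

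Rrm2, the small subunit of ribonucleotide reductase made in S phase, ran the other way, at 711.8 and 721.9 at ZT10 and 946 and 812.7 at ZT22. Its ZT10 minus ZT22 difference was -0.28 ± 0.13 (adjusted p = 0.497) and its dark minus light difference 0.15 ± 0.07 (adjusted p = 0.578). Tyms, the thymidylate synthase, read 582 and 566 at ZT10, below all other arrays, and 731.9 and 602.7 at ZT22. Rrm1, the large subunit of the reductase, read 1128.7 and 1158.5 at ZT10 and 1346.9 and 969.5 at ZT22, so the ZT22 pair spanned the ZT10 pair. Dut, which removes dUTP, varied from 324.8 to 407.9, with ZT10 and ZT22 within 0.01 ± 0.09 of each other in log2.

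The 3 genes of S phase entry all had both ZT10 arrays above both ZT22 arrays, beside 21.8% of all genes. Ccne2, the cyclin E2 that drives the start of S phase, read 325.5 and 343.9 at ZT10 and 314.8 and 311.9 at ZT14. It read 280.2, 215 and 209.2 at ZT2, 287.2 and 240 at ZT6, 229.8 and 218.9 at ZT18, and 282.1 and 229.5 at ZT22. The 4 arrays of ZT10 and ZT14 were above the other 9 on both days, so the high hours ran from the end of the light into the start of the dark.

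Ccne2 had a fitted 24 h difference of 0.47 ± 0.13 in log2, or 1.39-fold, with a peak at 10.95 h (adjusted p = 0.152). Its range over the times of day was 0.54 in log2 (adjusted p = 0.429), from ZT10 to ZT18, and its ZT10 minus ZT22 difference 0.37 ± 0.15 (adjusted p = 0.436). Without the first ZT2 and the first ZT22 arrays its 24 h difference was 0.67 (adjusted p = 0.0092). Ccne1 read 393.1 and 373.1 at ZT10 and 352.8 and 372.7 at ZT22, with the nearest arrays almost level. E2f1, the transcription factor that switches on many S phase genes, read 529.2 and 529.5 at ZT10 and 463.4 and 476 at ZT22, and its highest array was the first ZT6, at 555.4.

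**Figure D4:**
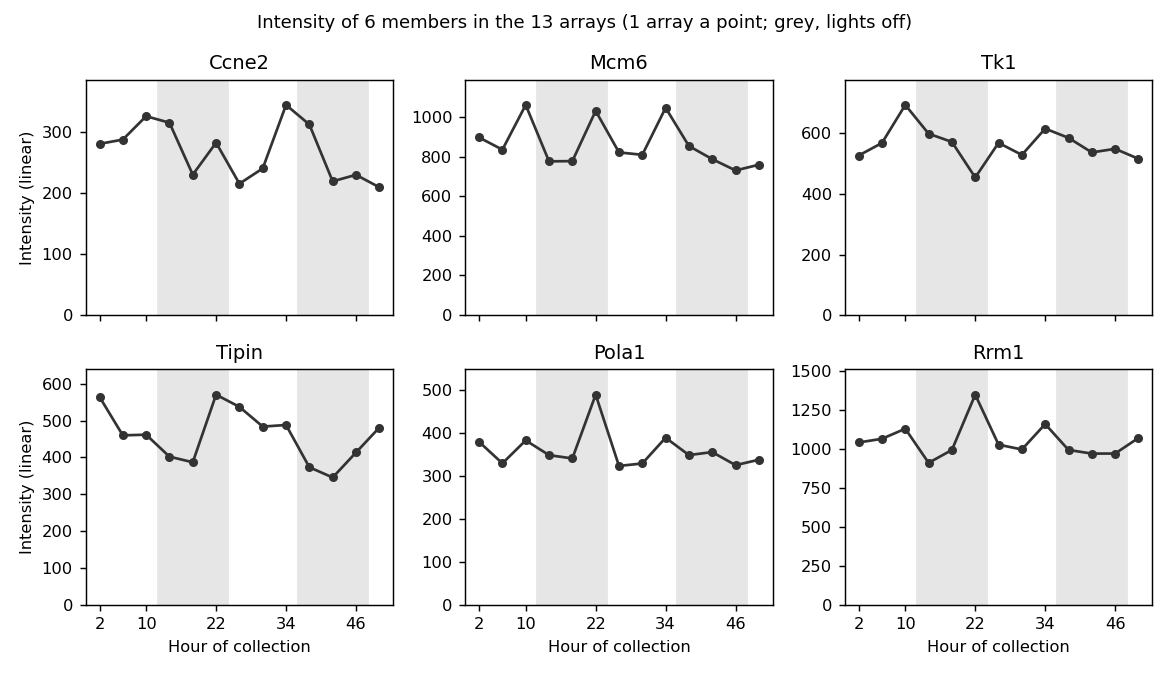
Linear intensity of Ccne2, Mcm6, Tk1, Tipin, Pola1 and Rrm1 by hour of collection, 1 array a point, with lights off in grey and axes from 0. Ccne2, Mcm6 and Tk1 have points at hours 10 and 34 above the 11 others, while Pola1 and Rrm1 have 1 high point at hour 22 that hour 46 does not repeat.

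Among the genes of chromatin assembly, histone mRNA and fork protection, the 2 members that belong to the assembly factor that places histones on new DNA were highest at ZT10. Chaf1a read 337.4 and 330.8 there, above 238.3 to 302.5 elsewhere, and Chaf1b 441.4 and 438.4, above 280.5 to 415. Uhrf1, which guides maintenance methylation, read 372.4 and 341.7 at ZT10 and 326.5 and 333.2 at ZT22. Slbp, which binds the stem loop of histone mRNA, had its highest value, 567.1, on the first ZT22 array and its lowest, 289.7, on the second ZT18 array.

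Tipin, which steadies stalled forks, had the smallest p of all members in the 24 h fit and a different time. It read 564.2, 537 and 480.8 at ZT2, 459.7 and 483.5 at ZT6, 461.5 and 487.8 at ZT10, 401.9 and 373.2 at ZT14, 386.7 and 345.4 at ZT18, and 570.1 and 413.2 at ZT22. The 4 arrays of ZT14 and ZT18 were the lowest on both days. Its fitted difference was 0.46 ± 0.11 in log2, or 1.37-fold, with a peak at 3.6 h (adjusted p = 0.104), and its dark minus light difference -0.26 ± 0.10 (adjusted p = 0.519). Without the first ZT22 array the 24 h fit called it (0.48, adjusted p = 0.0379), as it did without the first ZT2 and first ZT22 arrays (0.44, adjusted p = 0.0253), where dark minus light was called too (-0.33, adjusted p = 0.0361).

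Over all roles, dark against light (6 and 7 arrays) separated the members little. The spread in this test also holds the differences between the times of day on each side. No member passed, beside 0.0201% of all genes. Without the first ZT2 and the first ZT22 arrays Tipin passed, 1 member (2.5%) beside 0.241% of all genes. Without adjustment 4 did (10%, beside 8.28% of all genes): Gins2, Tipin and Mcm7 were lower in the dark, 3 members beside 6.23% of all genes, and Rrm2 was higher. The median difference was -0.04 in log2 for the members and -0.02 for all genes, and 9 of the 40 members (22.5%) read higher in the dark, beside 40.1% of all genes.

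The days were compared in 6 pairs of arrays of the same time of day, with the hour 50 array left out. No member passed, beside 0% of all genes, and at an unadjusted p under 0.05 there were 0 members, beside 6.46% of all genes (limma). The smallest p belonged to Pcna, at -0.13 ± 0.06 in log2 from day 1 to day 2 (unadjusted p = 0.0531). Ccne2, at -0.15 ± 0.07, Rrm2, at -0.13 ± 0.07, and Tyms, at -0.12 ± 0.06, followed, each with an adjusted p of 0.604.

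At single times of day the pair of arrays differed, with 1 array on each side and so no test. At ZT22, 31 of the 40 members (77.5%) read lower on the second day, beside 54.5% of all genes, with a median difference of -0.16 in log2 against -0.04. The first ZT22 array was the highest of the 13 for 12 members (30%), beside 20.8% of all genes, and the second the lowest for 7 (17.5%), beside 12.8%. At ZT6, 29 members (72.5%) read lower on the second day, beside 48.5% of all genes, with a median of -0.09. At ZT14, 31 (77.5%) read higher, beside 44.8% of all genes, with a median of 0.08, and at ZT18 26 (65%) did, beside 48%. At ZT10 and at ZT2 21 (52.5%) read higher, beside 61.2% and 57.7% of all genes. A test of whether the 24 h curve differed between the days, added after the values were seen, called 0 members beside 0% of all genes, and gave 3 without adjustment (Prim1, Pole2 and Rfc4), 7.5% beside 12.8% of all genes.

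The other genes of replication and of the RB and E2F pathway were counted beside the members. Of 46 other replication genes listed, 39 were tested and 1 passed the 24 h test, beside 2.13% of all genes. It was Top2a, which untangles DNA and is high before mitosis, with a 1.59-fold difference peaking at 22.9 h (adjusted p = 0.0316). Dctd, a deaminase of nucleotide supply, and Pold4, a polymerase subunit, came next at adjusted p = 0.108 and 0.197. The median ZT10 minus ZT22 difference of the 39 was -0.03 in log2, with 17 higher at ZT10 (43.6%), beside 57.8% of all genes. Of 24 E2F, RB, cyclin and CDK genes tested, 1 passed, beside the same 2.13%. It was Ccna2, the cyclin of late S phase and G2, at 1.60-fold with a peak at 23.3 h (adjusted p = 0.0372). E2f2, an activating E2F, had its fitted peak at 21.8 h (adjusted p = 0.0934) and Ccnd3, a cyclin of G1, at 13.1 h (adjusted p = 0.174). None of these 39 or 24 passed the ZT10 minus ZT22 contrast in limma, which 0.415% of all genes did. At an unadjusted p under 0.05 there were 6 of each, beside 9.85% of all genes. Of the 39, 2 were higher and 4 lower at ZT10, and of the 24, 3 were higher and 3 lower.

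The mitosis genes lay opposite to the members in this contrast. Of 19 tested, 10 passed the 24 h test, beside 2.13% of all genes. None was higher at ZT10 than at ZT22, beside 57.8% of all genes, with a median difference of -0.50 in log2. In that contrast 1 passed, beside 0.415% of all genes. Anln, Cdc20 and Prc1, which act in cytokinesis and the exit from mitosis, had fitted folds of 1.84, 1.53 and 1.61 with peaks at 23.2, 0.7 and 23.7 h (adjusted p = 0.00533, 0.0141 and 0.0249). The difference between the lists was not tested.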

How the data were processed

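Total RNA of whole back skin was hybridised to Affymetrix whole-transcript arrays, 1 pool of 3 mice per array, per the labels' protocols. The authors deposited 1 intensity per probe set on a linear scale, and the submitters' processing notes name Affymetrix Expression Console 1.1.1 and PLIER 2.0. How arrays were normalized to each other, and the build and annotation used, is not given in the sources used here. Array medians ran from 353.8 to 392.8. They were highest on the ZT10 arrays, at 392.8 and 389.6, and next on the first ZT14 array, at 385.5. With each array shifted to the median over genes, both ZT10 arrays lay above the 11 others for 10 members. That was 25%, beside 2.88% of all genes. No 2 arrays were identical.

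Groups are the hours in the labels. The platform annotation gave 1 gene for 21789 of 35557 probe sets (21698 matched the reference gene table), several for 1621, and did not list 12147; for 999 of the 19938 genes the probe set with the highest mean was used. Intensities from the deposited table were taken as log2(intensity + 16), the dimmest 25% of genes left out, and 14953 genes fitted in R 4.3.3 with limma 3.58.1 (lmFit, eBayes; 10, 7 and 5 residual degrees of freedom for the 24 h, time-of-day and day fits, the last with time of day as a block), with Benjamini-Hochberg adjustment. The code was tested on simulated data. Named are members with the 4 smallest p in each fit, the highest and lowest by mean in each role (a rule for names only), members past the threshold, and 3 genes of each related list by the 24 h fit; other members were chosen after their values were seen. Members and lists were chosen with earlier results of these data known. Intensities of different probe sets are not set against each other as levels. Alternatives covered the offset, filter, normalization, probe sets, covariates, day, and each array left out.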

Additional observations from a re-analysis of the deposited data

Results flagged for a closer look

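Of 82 groups tested (the light arrays and the dark arrays, for each of the 40 members and their median), 14 held 1 array set apart by a gap that was large against the group's whole range. Chance alone flags about 5 percent of such groups, and the arrays are shared by all genes, so these are not 14 separate events. The share of all genes flagged by this rule is not given here, so the 14 cannot be set against it. The first ZT22 array lay above every other array for 20.8% of all genes, beside 30% of the members. In the dark group the first ZT22 array was high in 8 members. The gap took 0.782 of the range for Pola1 (488.6, next array 355.1), 0.782 for Pcna, 0.779 for Rrm1 (1346.9, next 992.6), 0.685 for Prim1, 0.662 for Tyms, 0.65 for Rfc4 (692.4, next 466.7), 0.644 for Tipin and 0.626 for Prim2. In the same group the second ZT18 array was high for Chaf1b, at 0.678. In the light group the first ZT2 array was low for Uhrf1, at 0.682, and Cdt1, at 0.65 (214.3, next array 354.9). The first ZT6 array was high for Mcm7, at 0.636, the first ZT10 array was high for Mcm10, at 0.579, and the third ZT2 array was low for Slbp, at 0.59.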

How the results depend on the processing

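The members with the smallest p in each fit kept their direction under the alternatives run, and the mean of the members' medians on the ZT10 arrays, 0.13 in log2, lay between 0.11 and 0.15. The sign of ZT10 minus ZT22 changed for up to 8 of the 40 members in 1 setting: 8 without the first ZT22 array (among them Pola1, Prim1, Prim2, Pole2, Slbp and Tipin), 7 without the second (Orc6, Rfc3, Rfc4, Rfc5, Rpa1, Rrm1 and Dut), and 6 each with quantile normalization or the follicle score. With the dimmest 50% of genes left out, dark minus light called 1 gene in place of 3. In that setting both ZT10 arrays lay above the 11 others for 5 of 19 members (26.3%), beside 2.7% of all genes. They lay above both ZT22 arrays for 8 (42.1%), beside 21.5%. Quantile normalization gave 6 members above the 11 others in place of 11 (15%, beside 2.26% of all genes). With the receptor score as a covariate the 24 h fit called 157 genes in place of 318. With the growing follicle score, 125 genes in place of 44 passed for time of day, and 615 in place of 62, with 1 member, for ZT10 minus ZT22. With the collection day as a block the counts were 211, 13 and 40 genes. Leaving out arrays, 1 at a time or the pairs named in the report, moved the 24 h fit from 126 to 773 genes and 0 to 4 members, time of day from 18 to 1374 genes and 0 to 9 members, dark minus light from 1 to 36 genes and 0 to 1 members, and ZT10 minus ZT22 from 9 to 3271 genes and 0 to 6 members. In these settings the remaining ZT10 arrays lay above all other remaining arrays for 11 to 15 members, beside 3.73% to 9.97% of all genes. The 15 came without the first ZT6 array (4.05% of all genes) or with 1 ZT10 array left (9.31% and 9.97%). The remaining ZT10 arrays lay above the remaining ZT22 arrays for 21 to 34 members, beside 21.8% to 48.7% of all genes. The 34 were counted against the second ZT22 array alone. The cause of these moves was not tested. The day comparison called 0 throughout.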
